A study of Homo sapiens with 72 samples.

Results

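Among 96411 long non-coding RNA (lncRNA) genes measured in 3 human breast cell lines, 87 were clearly present at the start of the experiment in MDA-MB-231 and nearly absent from the other lines. They were chosen by their mean level over the 6 earliest libraries of each line, with a mean of 3 TPM or more in MDA-MB-231 and under 0.1 TPM in both MCF10A-M2 (M2) and MCF10A-M1 (M1). TPM, the unit of the levels, is a share of transcripts corrected for transcript length, and here the lncRNA genes alone made up the whole. The rule allowed for the 150 highest such genes, and 87 met it, out of 5633 genes at 3 TPM or more in MDA-MB-231, which is 1.54%. The levels in the earliest libraries therefore chose these genes, and they are given as a description, with no test.

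lncRNAs are transcripts without a known protein product, many of which are made in only a few cell types. TGF-β is a secreted ligand that binds a pair of receptor kinases, which phosphorylate SMAD proteins that then act on transcription in the nucleus. In normal breast epithelium it restrains growth, and in many carcinoma cells it drives a change toward a mesenchymal, migratory state. The question here was how a set of lncRNAs that belonged to 1 line behaved when this pathway was stimulated or blocked.

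MDA-MB-231 derives from a triple negative breast cancer, M2 is MCF10A transformed with HA-Ras, and M1 is non-malignant MCF10A mammary epithelium. After a night in serum-free medium, cells received either TGF-β (5 ng/mL) or SB431542 (SB, 10 µM), which blocks the type I TGF-β receptor kinase. Total RNA was sequenced at 0, 2, 8 and 24 h, with 3 replicates in each of 24 groups, 72 libraries in all. The 0 h libraries of the TGF-β arm were unstimulated controls. The first SB libraries carry 0 h in their titles and 0.5 h in the treatment field, and are called the earliest SB libraries. DMSO and ligand buffer are named as vehicles, but none of the 72 libraries is labelled as a vehicle control at 2, 8 or 24 h, so a difference between TGF-β and SB does not show by itself which arm moved. Each line stands for a single cell culture model, and in bulk RNA a lower level in every cell and a loss from some cells cannot be told apart.

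The genes carry NONCODE identifiers. None of the 87 matched an entry in the gene tables used, so names, positions and sequences are not given here, and the lines could not be checked against marker genes. No function is given for any of the 87. Genes are named by identifier for the 3 highest at the start and for the first 2 higher and first 2 lower in the TGF-β arm than in the SB arm at 24 h. Every other gene is called by its rank of start level in MDA-MB-231, from 1 to 87.

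At the start, most of the 87 genes were modestly expressed in MDA-MB-231. Their means over the 6 earliest libraries lay between 3.03 and 45.5 TPM, with a median of 5.54 TPM. There were 66 genes at 3 to 10 TPM, 19 at 10 to 30 TPM, 2 at 30 TPM or more and 0 at 100 TPM or more. The last gene inside the rule had 3.03 TPM, and the first outside it had just less than 3.0 TPM. On the other side of the rule, the larger of the M2 and M1 means reached 0.0961 TPM in the last gene inside and 0.1 TPM in the first outside.

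The levels were fairly steady across the 6 earliest MDA-MB-231 libraries. The coefficient of variation had a median of 21.9%, and ranged from 8.31% to 70.9%. The lowest single value of any of the 87 genes was 1.06 TPM, and 55 genes were at 3 TPM or more in each of these libraries. In the same libraries of the other lines, 31 genes were at 0 in all 12, 36 were at 0 in all 6 of M2 and 62 were at 0 in all 6 of M1.

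Across all hours the genes stayed on in MDA-MB-231. No gene was at 0 in any of its 24 libraries, and 85 of 87 were at 0.5 TPM or more in all 24. Together the 87 genes made up 417 to 854 TPM of an MDA-MB-231 library, which is 0.0417% to 0.0854% of the lncRNA total. The same genes summed to 0.399 to 7.1 TPM in M2 libraries and to 0.197 to 3.33 TPM in M1 libraries. At 0.5 TPM or more, an MDA-MB-231 library held 86 or 87 of them, an M2 library 0 to 5 and an M1 library 0 to 3.

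**Figure D1:**
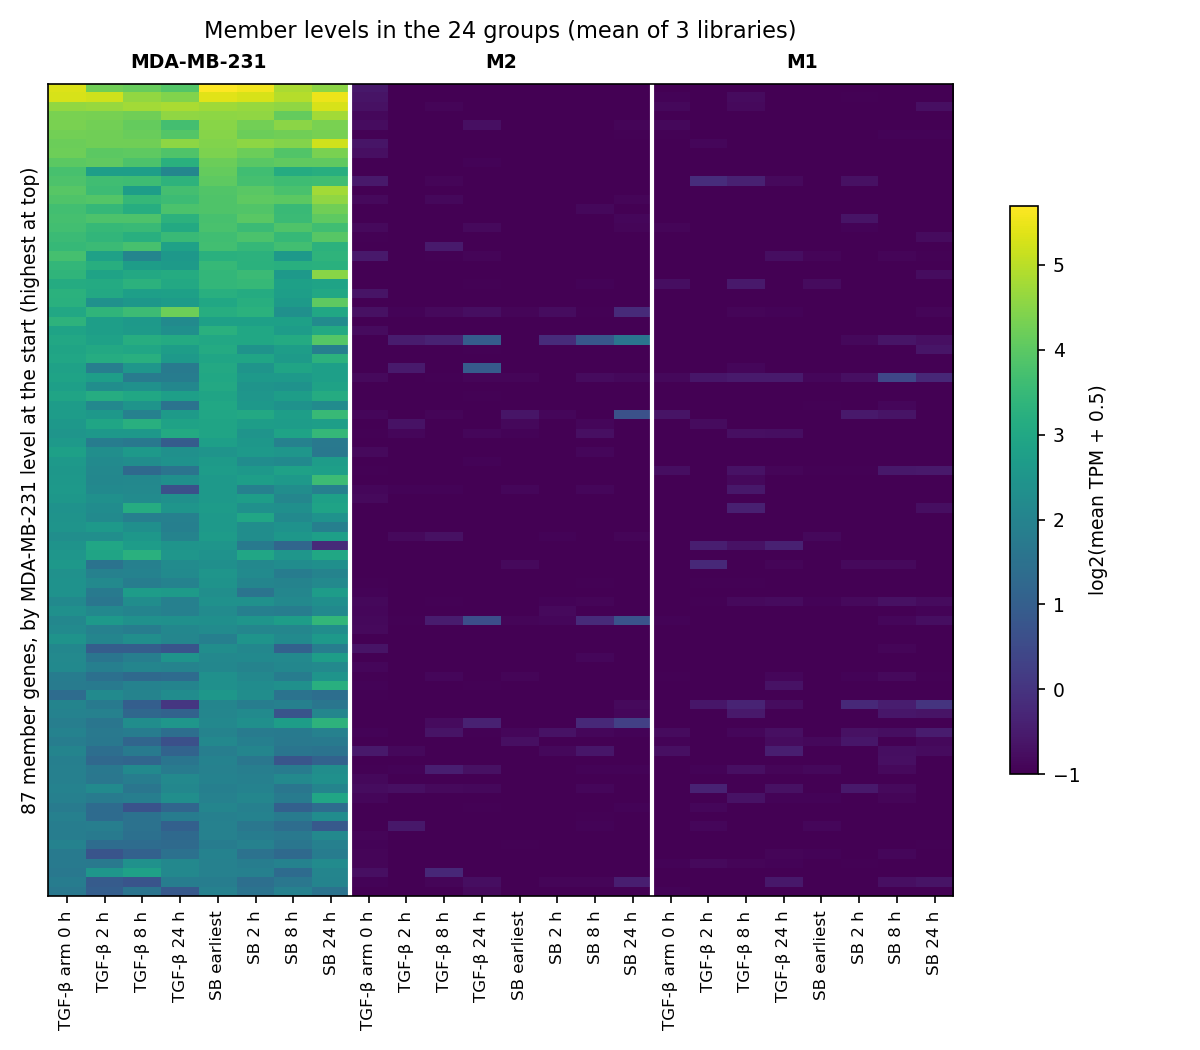
Level of the 87 genes in the 24 groups. Each row is a gene, ordered by its start level in MDA-MB-231, and each column is a group of 3 libraries, with color giving log2 of the mean TPM plus 0.5. The MDA-MB-231 block is bright in every column, and the M2 and M1 blocks are dark apart from short stretches in a few genes.

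The libraries at 2, 8 and 24 h had no part in choosing the genes, and in them the separation of the lines could be counted. In 83 of 87 genes, all 18 later MDA-MB-231 libraries lay above all 36 later libraries of M2 and M1. Among all 22575 genes that reached 0.5 TPM in at least 3 of these libraries, 554 did so, which is 2.45%. The rule had already set the lines apart at the start, so this share describes how far that separation lasted over the later hours.

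In the other 4 genes the lines overlapped, and they are named because they are so few, after their values were seen. NONHSAG083595.1 had 4 of its 18 later MDA-MB-231 libraries, the lowest at 0.206 TPM, at or under the highest M1 value of 1.1 TPM. NONHSAG033593.3 had 3 MDA-MB-231 libraries, the lowest at 0.154 TPM, at or under the highest M1 value of 0.648 TPM. The overlapping MDA-MB-231 libraries of both genes came from 1 arm, TGF-β for NONHSAG083595.1 and SB for NONHSAG033593.3. The gene of start rank 31 had an MDA-MB-231 low of 1.03 TPM against an M2 high of 1.92 TPM, and the gene of start rank 36 had 1.57 TPM against 1.78 TPM.

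Among M2 libraries, replicates 1 and 2 of the 0 h TGF-β arm stood apart. They held 25 and 26 of the 87 genes above 0, with sums of 3.74 and 5.12 TPM, while the other 10 earliest libraries of M2 and M1 held 2 to 11 genes and summed to 0.197 to 1.42 TPM. The 20 genes of highest MDA-MB-231 level summed to 1.59 and 2.34 TPM in these libraries, against 0 to 0.937 TPM in the other 46 libraries of M2 and M1. Their sums were 0.527% and 0.721% of the mean MDA-MB-231 sum at the start. Why they stood apart was not tested. Without these libraries the rule found 100 genes, of which 86 were shared, 98.9% of the 87 and 86% of the 100.

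The summed level of the 87 genes in MDA-MB-231 was lower at 24 h with TGF-β than with SB on the deposited scale. In the TGF-β arm the sum was 677 ± 96.6 TPM at 0 h, 582 ± 96.7 at 2 h, 560 ± 40.4 at 8 h and 530 ± 101 at 24 h (mean ± SD, n = 3 each). In the SB arm it was 743 ± 62.2 TPM in the earliest libraries, 686 ± 104 at 2 h, 594 ± 118 at 8 h and 785 ± 78.3 at 24 h (n = 3 each). At 24 h the 3 TGF-β libraries lay between 417 and 614 TPM, all under the 3 SB libraries at 700.0 to 854 TPM. No p is given for a sum over genes chosen from these data.

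**Figure D2:**
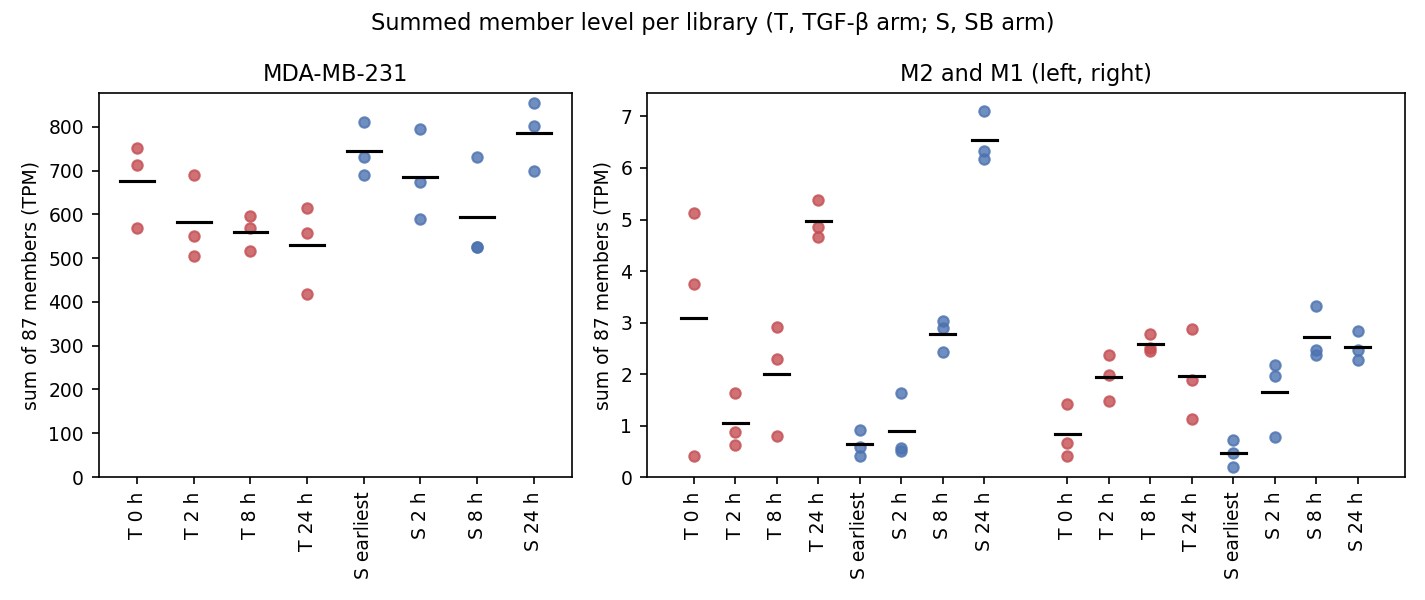
Summed TPM of the 87 genes in each library, with MDA-MB-231 in the left panel and M2 then M1 in the right panel, on separate axes. Points are libraries, red for the TGF-β arm and blue for the SB arm, and black lines are means of 3. On this deposited scale the 24 h TGF-β libraries of MDA-MB-231 lie under the 24 h SB libraries, and in M2 the highest mean of each arm is that of 24 h.

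On the deposited scale the same order appeared gene by gene. Of the 8 groups of MDA-MB-231, the 24 h TGF-β group held the highest mean of 1 gene and the lowest of 29, while the 24 h SB group held the highest mean of 32 genes and the earliest SB group that of 28. The earliest libraries had chosen the genes, and these counts were not made over all genes. Over all genes tested the median log2 difference of TGF-β minus SB at 24 h was also negative, at -0.33. After median-of-ratios scaling it was -0.01. The median of the 87 means was 4.48 TPM at 24 h of TGF-β and 6.32 TPM at 24 h of SB on the deposited scale. Between its highest and lowest group mean, a gene varied by 2.16 times in the median, with 6 genes under 1.5 times, 31 at 1.5 to 2 times, 27 at 2 to 3 times and 23 at 3 times or more. All 5633 genes at 3 TPM or more at the start varied by 1.81 times in the median. The sets were not matched for level, so these medians are a description, with no test.

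Set against the 0 h libraries, which chose the genes and so allow no test, 64 genes were lower and 23 higher at 24 h of TGF-β, with a median log2 difference of -0.33. For all genes at 3 TPM or more at the start that median was -0.34. In the SB arm 43 genes were lower and 44 higher at 24 h than in the earliest libraries, with a median of 0.02, against -0.01 for all genes at that level.

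At 24 h, 12 of the 87 genes differed between the TGF-β and SB arms of MDA-MB-231, 2 higher and 10 lower with TGF-β. A gene passed when its adjusted p was under 0.05 in limma on log2(TPM + 0.5), a scale that understates changes of low genes. Of all 16552 genes tested 4.39% passed, 0.646% higher and 3.74% lower, and of the 5633 genes at 3 TPM or more at the start 8.04% passed, 0.639% higher and 7.4% lower. All 87 genes were tested, and 13.8% passed. The median difference of the 87 genes was -0.51 (log2), that of all genes tested was -0.33 and that of genes at 3 TPM or more at the start was -0.45.

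The shift toward lower levels with TGF-β was also seen over all lncRNA genes, and it moved with the scaling. After median-of-ratios scaling the median was -0.08 for the 87 genes and -0.01 for all genes, and 7 genes passed, 3 higher and 4 lower, 6 of them among the 12. Of all genes tested 3.1% passed on that scale, 1.96% higher and 1.14% lower. With quantile normalization 6 passed, 3 higher and 3 lower, against 3.11% of all genes tested, 1.89% higher and 1.22% lower. Over all genes, calls were thus mostly lower with TGF-β on the deposited scale and mostly higher on these other scales. The 10 most abundant genes of a library took 74.4% to 77.9% of the TPM in the 24 h TGF-β libraries and 70.1% to 74.9% in the 24 h SB libraries, and the number of genes at 0.5 TPM or more was 10144 to 11955 with TGF-β and 12572 to 13199 with SB. With the 10 genes most abundant over the MDA-MB-231 libraries left out of the scaling total, 10 of the 87 genes passed, 2 higher and 8 lower. Of all genes tested 2.36% passed there, 0.634% higher and 1.73% lower. The medians on that scale were -0.39 for the 87 genes and -0.24 for all genes. Beyond that setting, the part of these values in the result was not tested. The count was 5 without TGF-β replicate 2 and 5 without SB replicate 1, with 2 higher and 3 lower each time.

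**Figure D3:**
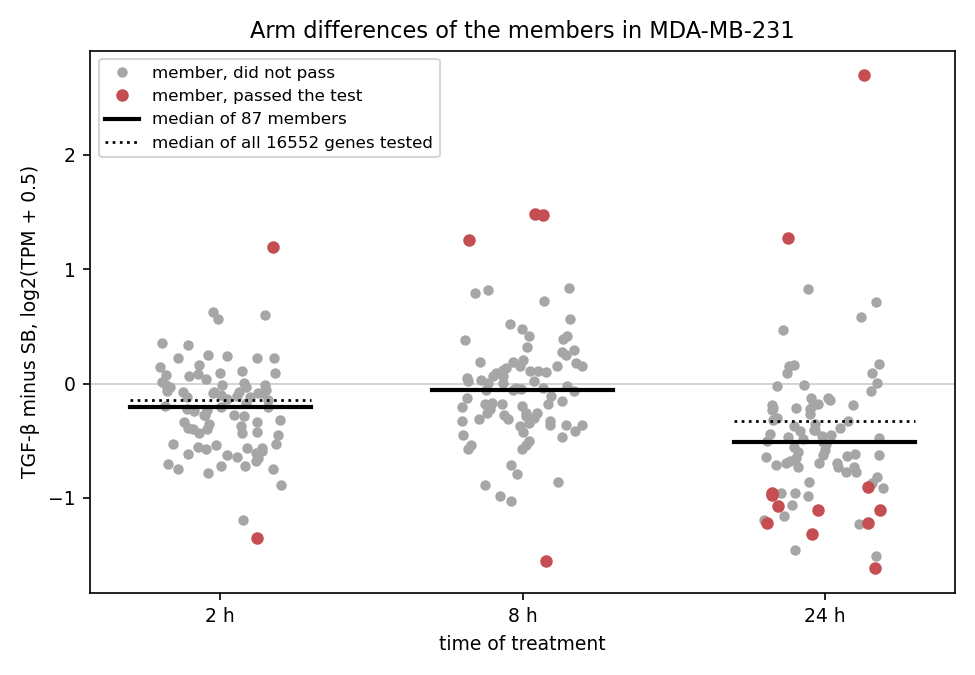
Difference between TGF-β and SB in MDA-MB-231 for each of the 87 genes at 2, 8 and 24 h, as log2(TPM + 0.5). Red points passed the test, solid lines are medians of the 87 genes and dotted lines medians of all 16552 genes tested. At 24 h both medians lie under 0, at -0.51 and -0.33 on the deposited scale and at -0.08 and -0.01 after median-of-ratios scaling, and a single gene stands far above at 2.69.

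NONHSAG033593.3, of start rank 50, had the clearest difference between the arms. With TGF-β its libraries held 5.34, 4.91 and 4.64 TPM at 0 h, 8.88, 5.9 and 7.28 TPM at 2 h, 4.17, 5.02 and 8.87 TPM at 8 h, and 5.63, 4.49 and 4.97 TPM at 24 h. With SB they held 4.29, 5.81 and 5.21 TPM in the earliest libraries, 3.09, 2.69 and 2.94 TPM at 2 h, 1.64, 1.16 and 2.61 TPM at 8 h, and 0.412, 0.536 and 0.154 TPM at 24 h. With TGF-β all 3 libraries at 2 h lay above all 3 at 0 h, and those at 24 h overlapped those at 0 h. With SB the mean was lower at each later time, and the arms did not overlap at 2, 8 or 24 h.

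The difference of NONHSAG033593.3, TGF-β minus SB, was 1.19 ± 0.27 (log2 ± SE) at 2 h, with a limma adjusted p of 0.0265. It was 1.49 ± 0.27 at 8 h, with an adjusted p of 0.00285, and 2.69 ± 0.27 at 24 h, with an adjusted p of 6.88e-07. Within the SB arm the gene fell by 2.00 ± 0.27 at 24 h relative to 2 h, with a limma adjusted p of 0.000251. Within the TGF-β arm the difference of 24 h and 2 h was -0.49 (log2), with an adjusted p of 0.355. The call at 2 h was lost when any 1 of the compared libraries was left out, with adjusted p-values of 0.0510 to 0.0995, with a pseudocount of 0.1, at 0.0583, and when the fit held the compared groups alone, at 0.0693. The call at 8 h was lost in that last fit too, with an adjusted p of 0.0839, and those at 24 h held under every setting run. In M2 it was at 0 in all 24 libraries, and in M1 in 14 of 24. Its M1 means at 2, 8 and 24 h were 0.241, 0.128 and 0.266 TPM with TGF-β and 0 TPM with SB. These low values are a description, with no test.

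NONHSAG072335.2, of start rank 25, rose in the TGF-β arm. With TGF-β it had 8.42, 7.73 and 6.72 TPM at 0 h, 12.2, 7.6 and 9.75 TPM at 2 h, 11.3, 11.1 and 12.3 TPM at 8 h, and 20.2, 14.2 and 20.1 TPM at 24 h. With SB it had 9.13, 8.59 and 7.72 TPM in the earliest libraries, 11.7, 7.81 and 7.8 TPM at 2 h, 4.11, 4.47 and 5.19 TPM at 8 h, and 9.35, 8.2 and 4.66 TPM at 24 h. The arms overlapped at 2 h and were apart at 8 and 24 h. The difference between the arms was 1.25 ± 0.24 (log2 ± SE) at 8 h, with a limma adjusted p of 0.0051, and 1.28 ± 0.24 at 24 h, with a limma adjusted p of 0.00278. The gene was at 0 in 7 of 24 M2 libraries and in 20 of 24 M1 libraries. In M2 its order at 24 h was the other way, with means of 0.0961 TPM with TGF-β and 0.376 TPM with SB. These low values are a description, with no test.

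Within the TGF-β arm NONHSAG072335.2 was 0.86 ± 0.24 higher at 24 h than at 2 h, with a limma adjusted p of 0.0368, which did not pass in 6 of 15 other settings. NONHSAG033593.3 and NONHSAG072335.2 are the 2 genes of the set that passed as higher with TGF-β at 24 h on the deposited scale. At that time the TGF-β mean of NONHSAG033593.3 was close to its 0 h mean and its SB mean far under the earliest one. The TGF-β mean of NONHSAG072335.2 was well above its 0 h mean. The earliest libraries had chosen the genes, so comparisons with them are a description, with no test. With SB, NONHSAG072335.2 had its lowest mean at 8 h, when its 3 libraries lay under all the earliest SB libraries.

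NONHSAG083595.1, of start rank 67, had the largest negative difference among the genes that passed at 24 h. With TGF-β it had 3.01, 3.1 and 4.53 TPM at 0 h, 3.67, 2.7 and 2.19 TPM at 2 h, 1.96, 1.79 and 0.732 TPM at 8 h, and 0.71, 0.206 and 0.689 TPM at 24 h. With SB it had 3.99, 4.04 and 2.88 TPM in the earliest libraries, 3.22, 3.29 and 2.72 TPM at 2 h, 2.8, 3.78 and 3.28 TPM at 8 h, and 3.13, 2.16 and 2.51 TPM at 24 h. The mean with SB was 3.64 TPM in the earliest libraries and 2.6 TPM at 24 h. With TGF-β it was 3.55 TPM at 0 h and 0.535 TPM at 24 h. Differences from the earliest libraries, which had chosen the genes, are a description. The arms were compared by test. At 24 h the gene was 1.61 ± 0.28 lower with TGF-β (log2 difference -1.61 ± SE), with a limma adjusted p of 0.00144. Within the TGF-β arm it was lower at 24 h than at 2 h by a log2 difference of -1.71 ± 0.28, with a limma adjusted p of 0.000752. Both calls held in all settings run.

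NONHSAG043880.2, of start rank 43, was also lower with TGF-β at 24 h. Its 24 h SB libraries lay above those of every other group, the earliest included. As the earliest libraries had chosen the genes, this is a description, with no test. With TGF-β at 24 h the gene had 6.52, 2.47 and 4.74 TPM, against 13.2, 12.2 and 9.13 TPM with SB. Its other groups lay between 3.3 and 8.34 TPM in single libraries. The log2 difference was -1.31 ± 0.28, with a limma adjusted p of 0.00971. It did not pass without TGF-β replicate 2, with an adjusted p of 0.0981, or without SB replicate 1, with an adjusted p of 0.0594.

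**Figure D4:**
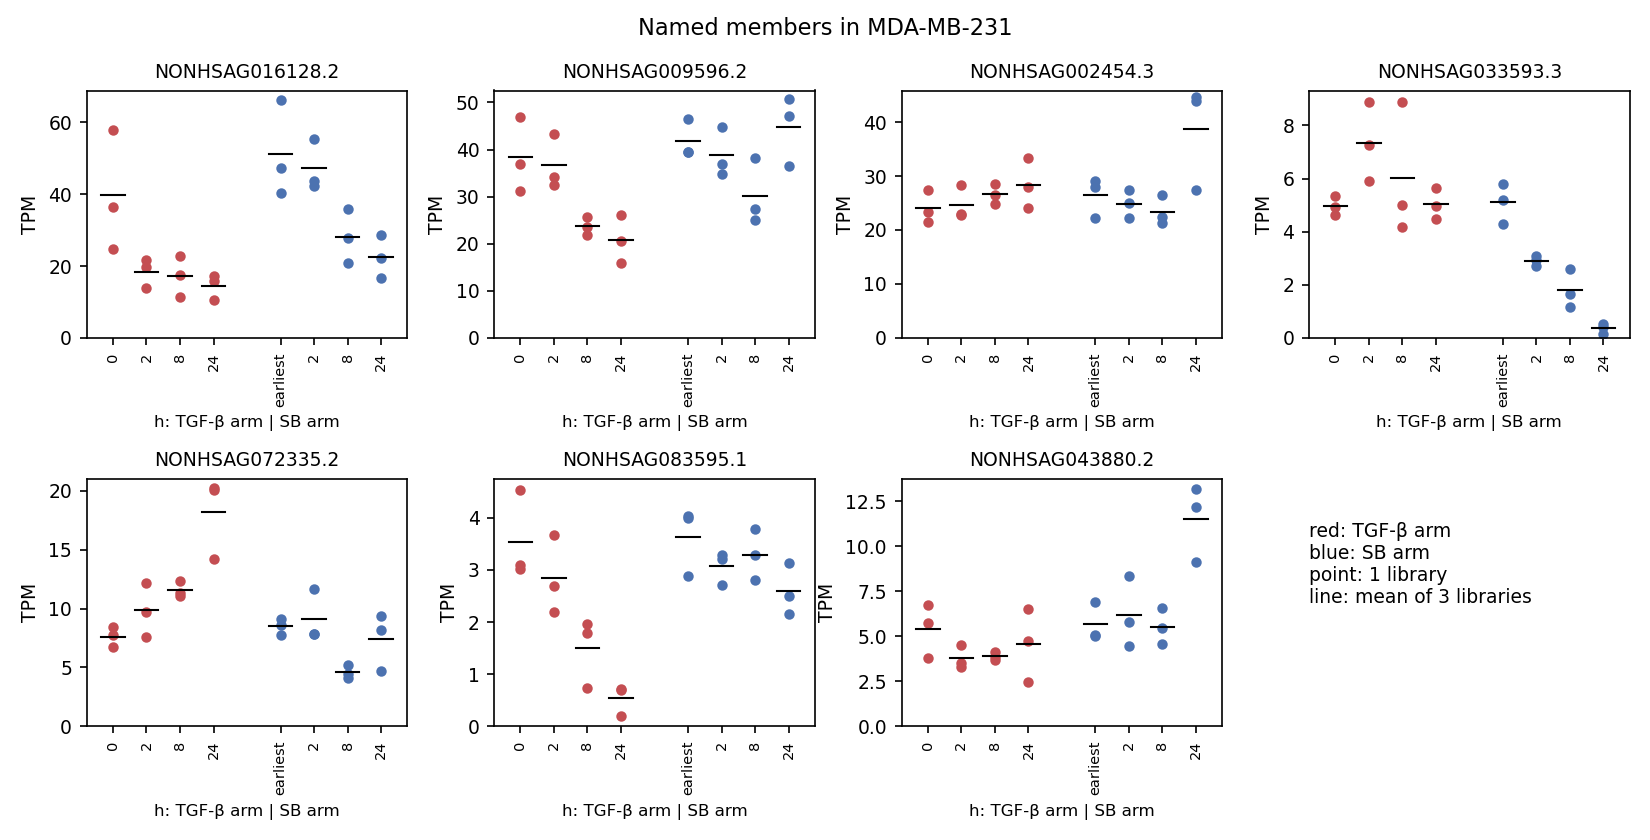
TPM of the 7 genes named by identifier in each MDA-MB-231 library, with the TGF-β arm in red on the left and the SB arm in blue on the right of each panel. Points are libraries and lines are means of 3. NONHSAG033593.3 steps down with SB to a mean of 0.367 TPM at 24 h, and NONHSAG083595.1 steps down with TGF-β to a mean of 0.535 TPM.

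The 3 most abundant of the 87 genes did not move alike. NONHSAG016128.2, the highest at the start, had 19.7, 13.8 and 21.8 TPM at 2 h of TGF-β, against 42.4, 43.8 and 55.4 TPM at 2 h of SB. The groups did not overlap, and the log2 difference was -1.35 ± 0.30, with a limma adjusted p of 0.0265, which did not pass without a filter or in 5 of the 6 fits that left out 1 compared library. By 24 h it had 15.9, 10.5 and 17.2 TPM with TGF-β, against 22.3, 16.6 and 28.7 TPM with SB, and the groups overlapped. The log2 difference there was -0.61, with a limma adjusted p of 0.221. Its mean in the TGF-β arm was 39.7 TPM at 0 h, 18.4 at 2 h, 17.2 at 8 h and 14.5 at 24 h, and in the SB arm 51.2 TPM in the earliest libraries, 47.2 at 2 h, 28.2 at 8 h and 22.5 at 24 h. The lowest mean of either arm was that of 24 h.

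NONHSAG009596.2, of start rank 2, had 23.6, 21.8 and 25.6 TPM at 8 h and 26.1, 15.9 and 20.5 TPM at 24 h of TGF-β, against 25, 27.4 and 38.3 TPM at 8 h and 50.8, 47.1 and 36.6 TPM at 24 h of SB. The arms came apart at 24 h, with a log2 difference of -1.10 ± 0.21 and a limma adjusted p of 0.00316, a call that held in all settings run. Within the TGF-β arm the level was 20.8 ± 5.13 TPM at 24 h and 36.7 ± 5.88 TPM at 2 h (SD, n = 3 each), a log2 difference of -0.82 with a limma adjusted p of 0.0235, lost without TGF-β 24 h replicate 2 or 3 or 2 h replicate 1 and when the fit held the compared groups alone.

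NONHSAG002454.3, of start rank 3, did not pass at 24 h, and whether it differed was not resolved with 3 libraries a group. It had 33.3, 24 and 28 TPM at 24 h of TGF-β, against 44.7, 44 and 27.5 TPM at 24 h of SB, and the groups overlapped. The log2 difference was -0.42, with a limma adjusted p of 0.192, and it took the other sign, 0.06 and 0.02, under median-of-ratios scaling and quantile normalization.

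The other 7 genes that passed as lower with TGF-β at 24 h had start ranks 9, 13, 32, 42, 64, 65 and 71. Their log2 differences lay between -0.90 and -1.22, and their limma adjusted p-values between 0.00366 and 0.0496. They did not share a single course. Start rank 71 had 0.979, 1.02 and 1.2 TPM at 24 h of TGF-β, against 2.27, 3.11 and 3.02 TPM at 24 h of SB, and it had 3.04 ± 0.166 TPM at 0 h of the TGF-β arm and 3.85 ± 0.249 TPM in the earliest SB libraries. The 24 h libraries of each arm all lay under the earliest libraries of that arm. Start rank 13 had 11.8, 11.6 and 11 TPM with TGF-β, against 28.7, 26.2 and 15.5 TPM with SB, and it had 13.9 ± 1.28 TPM at 0 h of the TGF-β arm and 13.9 ± 1.36 TPM in the earliest SB libraries. Start rank 65 had 4.77, 2.57 and 3.27 TPM with TGF-β, against 8.98, 6.66 and 10.8 TPM with SB, and it had 2.92 ± 0.476 TPM at 0 h of the TGF-β arm and 4.63 ± 1.03 TPM in the earliest SB libraries. In both of these genes the 24 h SB mean lay farther from the mean of its own earliest libraries than the 24 h TGF-β mean did. Such comparisons are a description, with no test, as the earliest libraries had chosen the genes.

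Of the 75 genes that did not pass at 24 h, 28 had an unadjusted p under 0.05. On the deposited scale 75 of the 87 differences were negative and 12 positive, and 37 were under 0.5 in size (log2). Counts of sign and of unadjusted p were not made over all genes tested, whose median was also negative, at -0.33. After median-of-ratios scaling the medians were -0.08 for the 87 genes and -0.01 for all genes. How far the genes that did not pass differ was not resolved with 3 libraries a group.

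At earlier times fewer genes passed. At 2 h the arms differed in 2 of 87 genes, 1 higher and 1 lower, against 1.14% of all genes tested, 0.489% higher and 0.652% lower. These were NONHSAG033593.3 and NONHSAG016128.2, and 12 genes had an unadjusted p under 0.05, a count not made over all genes. The median difference was -0.21 for the 87 genes and -0.15 for all genes. Leaving out 1 library brought the count to 0 or 1, and it was 0 without TGF-β replicate 1 or 2 or without SB replicate 1, 2 or 3.

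At 8 h the arms differed in 4 of 87 genes, 3 higher and 1 lower, against 0.936% of all genes tested, 0.671% higher and 0.266% lower. Besides NONHSAG033593.3 and NONHSAG072335.2, these were the genes of start ranks 42 and 85, given because the count is small. The one of rank 85 had 5.48, 8.01 and 6.22 TPM with TGF-β, against 2.03, 1.69 and 2.37 TPM with SB, a log2 difference of 1.48 ± 0.35 with a limma adjusted p of 0.0411. This call was lost with the replicate block, without a filter and in all 6 fits that left out 1 compared library. At 24 h it had 4.86, 2.33 and 4.42 TPM with TGF-β, against 4.87, 3.85 and 2.12 TPM with SB, so its arms overlapped. The one of rank 42 had 1.86, 0.881 and 3.09 TPM with TGF-β at 8 h, against 4.97, 4.33 and 10.7 TPM with SB, a log2 difference of -1.55 ± 0.35 with a limma adjusted p of 0.0298. That call was lost without a filter, when the fit held the compared groups alone and in 4 of the 6 fits that left out 1 compared library. The gene was also lower at 24 h, with 3.49, 1.61 and 2.28 TPM with TGF-β, against 4.81, 8.64 and 5.57 TPM with SB. The count of 4 became 2 without TGF-β 8 h replicate 1 or 2 or without SB 8 h replicate 1 or 3. The median over the 87 genes was -0.05, and -0.06 for all genes.

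Within the TGF-β arm, 7 of 87 genes differed between 24 h and 2 h, 1 higher and 6 lower. Of all genes tested 4.82% passed, 0.894% higher and 3.93% lower, and of genes at 3 TPM or more at the start 10% passed. This comparison uses the same 24 h TGF-β libraries as the comparison with SB. Besides NONHSAG009596.2, NONHSAG072335.2 and NONHSAG083595.1 and those of start ranks 9, 32 and 71, it held the gene of start rank 44, with 0.976, 0.874 and 1.32 TPM at 24 h, against 4.82, 5.27 and 1.88 TPM at 2 h. Its log2 difference was -1.44 ± 0.39, with a limma adjusted p of 0.0341. The count was 3 without TGF-β 24 h replicate 2 or 2 h replicate 1, and 4 without 24 h replicate 3 or 2 h replicate 2. After median-of-ratios scaling 16 genes passed, 10 higher and 6 lower, against 7.9% of all genes tested, 3.51% higher and 4.39% lower, so the split between higher and lower rested on the scaling.

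Within the SB arm, 2 of 87 genes differed between 24 h and 2 h, 1 higher and 1 lower, against 0.997% of all genes tested, 0.665% higher and 0.332% lower. NONHSAG033593.3 was lower, as given above. Higher at 24 h was the gene of start rank 38, which had 8.51, 10.1 and 13 TPM at 24 h, against 6.25, 3.49 and 5.27 TPM at 2 h, a log2 difference of 1.02 ± 0.25 with a limma adjusted p of 0.0492. It passed in 1 of the 6 fits that left out 1 compared library, the fit without SB 2 h replicate 1. After median-of-ratios scaling 9 genes passed, 5 higher and 4 lower, against 2.78% of all genes tested, 1.4% higher and 1.38% lower.

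Whether the gap between the arms differed between 24 h and 2 h was tested directly. In limma 0 of 87 genes passed, against 0.23% of all genes tested. There were 15 genes with an unadjusted p under 0.05, a count not made over all genes, and the smallest adjusted p was 0.126. After median-of-ratios scaling 2 genes passed, against 0.435% of all genes tested, and after quantile normalization 2 passed, against 0.387%. With a pseudocount of 0.1, 1 passed, against 0.175%. The difference was positive in each of these calls. On the deposited scale, the larger number of genes that differed between the arms at 24 h, 12 against 2 at 2 h, is therefore not itself shown gene by gene.

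In M2 and M1 most of the 87 genes stayed nearly silent through 24 h. There were 45 genes under 0.1 TPM in the mean of all 16 groups of these lines, and 12 at 0 in all 48 libraries. At a later hour 35 genes reached a group mean of 0.1 TPM, 18 in M2 and 25 in M1, and 6 reached 0.5 TPM, 5 in M2 and 1 in M1. Those at 1 TPM or more were 4, all in M2.

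In 3 of the 5 M2 genes the highest mean of each arm was that of 24 h. The rule had asked for low levels in the earliest M2 libraries, so higher levels later than in these are a description. The gene of start rank 28 was at 0 in all 6 earliest M2 libraries. It then had 0.633, 0 and 0 TPM at 2 h, 0, 0.532 and 0.312 TPM at 8 h, and 2.05, 1.14 and 1.14 TPM at 24 h with TGF-β. With SB it had 0.286, 0.889 and 0 TPM at 2 h, 1.06, 1.65 and 0.989 TPM at 8 h, and 3.39, 2.55 and 1.74 TPM at 24 h. All its 24 h libraries in both arms were above all its earliest ones, and the arms overlapped at 24 h, with a log2 difference of -0.65 and a limma adjusted p of 0.359. In MDA-MB-231 this gene had a mean of 8.03 ± 1.57 TPM at 24 h of TGF-β and 14.6 ± 3.8 TPM at 24 h of SB (SD, n = 3 each), and the difference did not pass there either, with a limma adjusted p of 0.0529.

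Start rank 58 had a like pattern at a lower level. In M2 it had 1.16, 1.02 and 0.877 TPM at 24 h of TGF-β and 1.11, 1.07 and 1.22 TPM at 24 h of SB, while its earliest M2 libraries reached 0.0948 TPM at most. The arms overlapped, with a limma adjusted p of 0.90. Start rank 69 had 0.143, 0.371 and 0.295 TPM at 24 h of TGF-β and 0.605, 0.857 and 0.652 TPM at 24 h of SB in M2, and was at 0 in all 6 of its earliest libraries. These groups did not overlap, but the limma adjusted p was 0.153. In M2 this gene reached 0.5 TPM only in SB libraries, at 8 and 24 h, so its test is given no reading.

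A further pair of M2 genes was listed at 0 in 1 arm at 24 h. Their high arm brought them past the filter on low values, so their values are given as a description. The gene of start rank 31 had 1.3, 0.938 and 1.92 TPM with TGF-β and was listed at 0 in each of the 3 libraries with SB. In its other M2 libraries it was listed at 0 in all but 1 library, which had 0.607 TPM at 2 h of TGF-β. In MDA-MB-231 its order was the other way, with 4.08, 1.03 and 3.43 TPM at 24 h of TGF-β and 6.45, 6.18 and 6.55 TPM at 24 h of SB, although that difference did not pass, with a limma adjusted p of 0.0632.

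The gene of start rank 36 was listed at 0 in all 3 M2 libraries at 24 h of TGF-β and had 0.747, 0.729 and 1.78 TPM with SB. Without any 1 of these SB libraries it no longer passed the filter. Only 5 of 87 genes passed it in M2, and 2 of them, this pair, passed the test, against 10.7% of all genes tested. A gene this low at the start entered the test only by being higher elsewhere, so neither the count nor the adjusted p-values of the M2 genes support anything.

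In M1 the gene of start rank 32 was the only one to reach a mean of 0.5 TPM. It had 0.591, 0 and 0 TPM at 8 h of TGF-β, against 0.9, 1.1 and 0.546 TPM at 8 h of SB, and 0.424, 0.161 and 0 TPM at 24 h of TGF-β, against 0.477, 0.197 and 0.318 TPM at 24 h of SB. The arms overlapped at both times. Both genes that passed the filter in M1 had no call between the arms at 24 h, and 0 had an unadjusted p under 0.05 in limma. By adjusted p, 14.6% of all genes tested passed in M1. As in M2, genes this low at the start entered the test only by being higher elsewhere, so this lack of calls supports nothing.

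**Figure D5:**
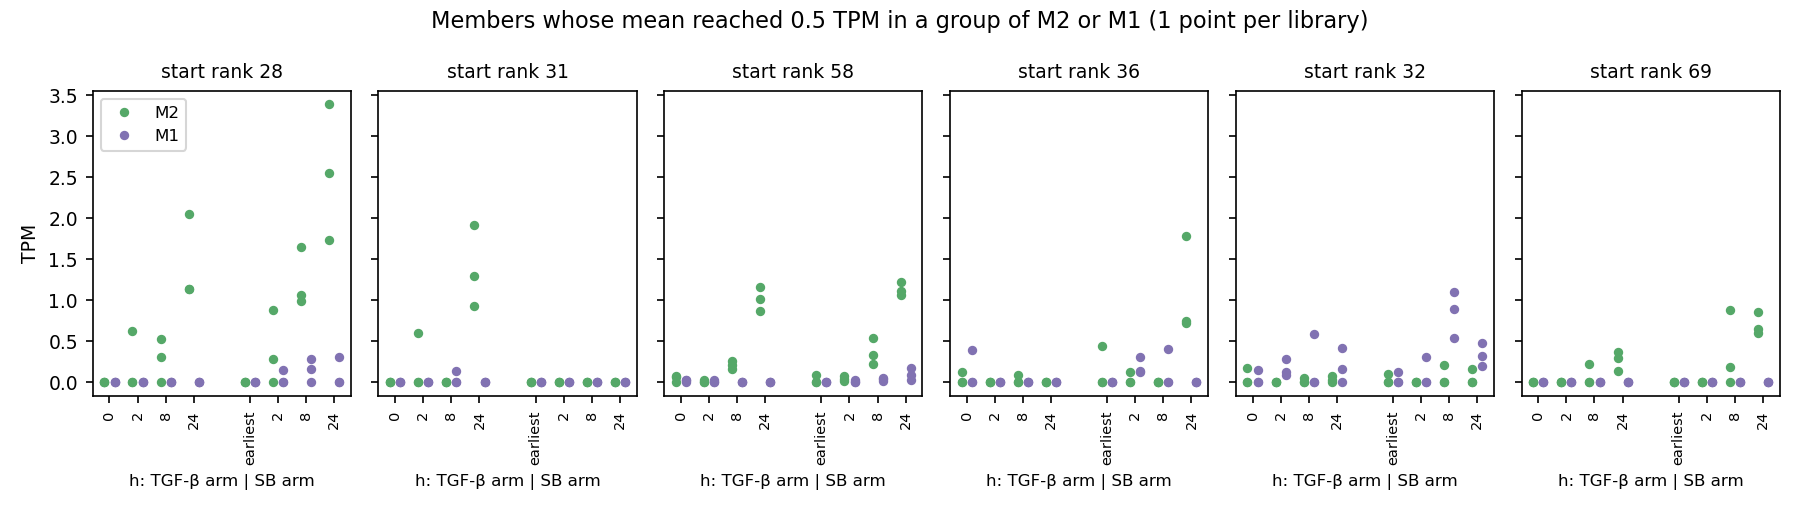
TPM of the 6 genes that reached a mean of 0.5 TPM in a group of M2 or M1, 1 point per library, M2 in green and M1 in violet, with the TGF-β arm on the left and the SB arm on the right of each panel. The M2 means of start ranks 28, 58 and 69 are highest at 24 h in each arm, and at 24 h rank 31 is above 0 only with TGF-β and rank 36 only with SB.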

How the data were processed

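Total RNA was isolated with TRIzol and sequenced on the Illumina platform, per the labels' protocols. The authors deposited a table of TPM for 72 libraries and 96411 lncRNA genes, and as each library is scaled to the sum of those genes, abundant genes that change shift the rest. Reads were handled with StringTie 1.3.6, HISAT2 2.2.0, cutadapt 2.10 and FastQC on GRCh38, per the submitters' processing notes, which give no order. The strand setting is not given in the sources used here, so reads of genes that overlap on either strand cannot be assigned with certainty, and near-identical genes may share reads. TPM keeps no depth, so depth is unknown and no interval or detection limit is given.

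Groups came from the labels. The design text speaks of 36 samples in biological triplicates, and 72 are listed; if the triplicates came from shared cultures, the p-values reflect technical spread alone. No libraries were identical, and none was left out.

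Within a line, genes reaching 0.5 TPM in 3 or more of its 24 libraries entered limma 3.58.1 (trend) in R 4.3.3 as log2(TPM + 0.5), two-sided, all 8 groups in the fit, with Benjamini-Hochberg adjustment over all genes tested. Files were read with the R package data.table (version 1.17.8), and values were summarised in Python 3.11.15 with pandas 2.3.3. The fit was tested on simulated data. The genes, lists and tests were chosen with earlier results of these data known.

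Identifiers are printed for the 3 genes of highest start level and for the first 2 in each direction, by size of log2 difference, that passed in MDA-MB-231 between the arms at 24 h with groups that did not overlap. Other genes are given by rank, and those singled out where a count was 5 or fewer were chosen after their values were seen.

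Replicate numbers are shared by all groups. Deviations of same-numbered MDA-MB-231 libraries from their group means correlated at 0.102 to 0.13 between TGF-β and SB at 2 h. The labels give no pairing, and the 2 h results above come from the fit without a replicate block, which ignores this correlation. The fit with a replicate block called the same number of genes at 2 h. Its limma adjusted p-values were 0.0054 for NONHSAG016128.2 and 0.021 for NONHSAG033593.3. In the other comparisons of MDA-MB-231 groups these correlations were weaker, at -0.032 to 0.086. Alternatives covered the pseudocount, the filter, the scaling, the groups in the fit, the replicate block, each library left out and the limits of the rule; a rule without the M2 libraries that stood apart was added after the data were seen.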

Additional observations from a re-analysis of the deposited data

How the results depend on the processing

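Counts are of the 87 genes that passed. For TGF-β against SB in MDA-MB-231 at 2 h (2 genes), 1 passed with a pseudocount of 0.1, 1 without a filter, 1 with only the compared groups, and 0 to 1 with 1 library left out. At 8 h (4 genes), 2 passed without a filter, 2 with only the compared groups and 2 to 3 with 1 library left out. At 24 h (12 genes), 19 passed at a mean of at least 1 TPM, 7 after median-of-ratios scaling, 6 after quantile normalization and 5 to 16 with 1 library left out. For 24 h against 2 h of TGF-β (7 genes), 4 passed without a filter, 16 after median-of-ratios scaling, 14 after quantile normalization, 2 with only the compared groups and 3 to 6 with 1 library left out. For 24 h against 2 h of SB (2 genes), 1 passed with a pseudocount of 0.1, 1 without a filter, 9 after median-of-ratios scaling, 1 when the scaling total lacked the top 10 genes, 7 after quantile normalization, 1 with only the compared groups and 1 to 3 with 1 library left out. For the change of the gap between the arms (0 genes), 1 passed with a pseudocount of 0.1, 2 after median-of-ratios scaling and 2 after quantile normalization. Between the arms at 24 h, 2 genes passed in M1 (0 genes) and 5 in M2 (2 genes) without a filter, and 1 to 2 in M2 with 1 library left out. At a mean of at least 1 TPM no gene of the 87 was left to test in M1 or M2, nor in M1 with only the compared groups. The causes were not tested.

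With the replicate block, 2, 3 and 16 genes passed between the arms at 2, 8 and 24 h, 7 and 3 within the TGF-β and SB arms, 0 for the change of the gap, 0 in M1 and 2 in M2, all within 1.5 times of the fit without it. Apart from 2 h, same-numbered MDA-MB-231 libraries correlated at -0.032 to 0.086, which cannot show whether they were paired. Such correlations were not computed in M2 or M1. At 24 h all 12 genes passed with the block, and 6 of them after median-of-ratios scaling.

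The rule gave 55 genes when each of the 6 libraries had to reach 3 TPM, 80 from the 0 h TGF-β libraries alone and 108 from the earliest SB libraries alone. It gave 112 at a limit of 0.2 TPM, 71 at 0.05 TPM and 101 after median-of-ratios scaling. For the named genes, 196 results under other settings stayed on the same side of the threshold with the same sign and 27 lost their call. The 24 h difference of NONHSAG002454.3 changed sign, to 0.0559 after median-of-ratios scaling and 0.0194 after quantile normalization.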

Other observations

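Identifiers of 2 pairs of the 87 genes differ by 1 in their number. In the first pair, of start ranks 10 and 1, the gene of rank 10 had means of 12.9, 6.29, 6.23 and 3.72 TPM at 0, 2, 8 and 24 h of TGF-β, and 16.9, 12, 8.18 and 8.73 TPM at the same steps of SB in MDA-MB-231. The gene of rank 1, given above, had 39.7, 18.4, 17.2 and 14.5 TPM with TGF-β and 51.2, 47.2, 28.2 and 22.5 TPM with SB. In the second pair, of start ranks 21 and 24, the means at 24 h were 8.19 and 5.82 TPM with TGF-β, against 22.2 and 15.8 TPM with SB. Their positions are not given here, and reads shared between neighbouring or overlapping genes were not tested.

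At 24 h of TGF-β, the M2 sum over the 87 genes was 4.97 ± 0.374 TPM, and at 24 h of SB it was 6.54 ± 0.494 TPM, while the 0 h TGF-β libraries summed to 3.74, 5.12 and 0.399 TPM, the earliest SB libraries to 0.635 ± 0.252 TPM and the 2 h libraries to 1.04 ± 0.524 TPM with TGF-β and 0.895 ± 0.631 TPM with SB (SD, n = 3 each). In M1 the sum was 1.96 ± 0.881 TPM at 24 h of TGF-β and 2.53 ± 0.286 TPM at 24 h of SB, against 0.828 ± 0.525 TPM at 0 h and 0.463 ± 0.266 TPM in the earliest SB libraries.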
